A study of Mus musculus with 3 samples.

Results

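The genes described here encode the class I and class II molecules of the mouse major histocompatibility complex (MHC) and the proteins that supply them with peptides. They were chosen by name: every symbol in the count tables that begins with H2-, together with B2m, Cd74, Ciita, Nlrc5, Tap1, Tap2, Tapbp, Tapbpl, Psmb8, Psmb9, Psmb10, Psme1, Psme2, Erap1, Calr and Canx. The rule found 39 genes among the 17775 genes with a row in any table, and 36 of the 39 had a row in all 3 tables. Of the 39, 27 belong to the class I pathway and 11 to the class II pathway, and 1, H2-Ke6, carries the prefix without encoding an MHC chain. Together they held 0.252% of all unique molecular identifiers (UMIs), each of which stands for 1 captured RNA molecule. At least 20 UMIs were counted for 36 of them, and the other 3 (H2-M2, H2-Q1 and H2-T24) were close to absent.

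Single-cell RNA libraries were made from the dissected pituitary intermediate lobe of 3-month-old mice, with 1 library for each of 3 genotypes. All mice carried the tamoxifen-inducible Cre allele Sox9iresCreERT2/+, which is active in cells that express Sox9, and had received tamoxifen by mouth, at 4 weeks of age by the sample labels, whereas the main text of the study gives birth as the time Cre was activated. By the study's methods each genotype also held a YFP reporter allele at Rosa26, which the labels do not give. The same methods state a mixed background, with littermates or mice of similar background compared. Which H2 alleles the mice of each library carried is not given, and a part of such alleles in the H2 values was not tested. The library WT carried no further allele, P27NULL was also p27-/- (no copy of Cdkn1b, which encodes a cell cycle inhibitor), and S2CK was p27-/- with 1 floxed copy of Sox2 (Sox2fl/+), a transcription factor of pituitary stem cells. By the study's supplement the WT library pooled males only, and the P27NULL and S2CK libraries each pooled a male and a female. With 1 library for each genotype, no difference between genotypes has a replicate check and none was tested. Genotype cannot be told apart from anything else that differed between the libraries, and every interval given below is a 95% interval for counting error alone.

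Class I molecules consist of a heavy chain and the light chain beta-2 microglobulin, sit on most nucleated cells and show peptides from inside the cell to cytotoxic T cells. The peptides are cut by proteasomes, whose catalytic subunits are exchanged for immunoproteasome subunits under interferon, and are carried by the TAP transporter into the endoplasmic reticulum, where the loading complex fits them to the heavy chain. Class II molecules consist of an alpha and a beta chain, are assembled on the invariant chain Cd74, receive peptides with the help of the DM and DO proteins, and are made mainly by macrophages, dendritic cells and B cells under the control of the transactivator CIITA. The pituitary intermediate lobe is built of melanotrophs, which make melanocyte-stimulating hormone from POMC, with a layer of SOX2-positive stem cells (SCs) along the cleft.

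The sequences just before the annotated starts of 6 of these genes are given because the heavy chains H2-K1 and H2-D1, their partner B2m and the class II chains H2-Aa and H2-Eb1 carry most of what follows, while H2-Q2 departs from the other heavy chains. Each run of 180 bases ends at the base before the start, reads 5′ to 3′ along the gene's own strand and comes from RefSeq (GRCm38.p6). Capitals mark matches, on either strand, to 5 letter patterns: AANNGAAA (the core of an interferon response element), TAGCAAC (an X box core), CCAAT (the Y box), GGGATTCCC (a site for NF-kB) and TGACGTCA (a cyclic AMP response element). In H2-Q2 the marked interferon core and Y box overlap. The positions are chr17:34000348-34000527 (minus strand) for H2-K1, chr17:35262914-35263093 (plus) for H2-D1, chr17:35342127-35342306 (plus) for H2-Q2, chr2:122147507-122147686 (plus) for B2m, chr17:34287824-34288003 (minus) for H2-Aa and chr17:34305687-34305866 (plus) for H2-Eb1. The table holds 2 starts for H2-K1, the one upstream was taken, and the printed bases lie within the span that RefSeq gives to H2-K1 as a whole (33996012 to 34000619).
H2-K1: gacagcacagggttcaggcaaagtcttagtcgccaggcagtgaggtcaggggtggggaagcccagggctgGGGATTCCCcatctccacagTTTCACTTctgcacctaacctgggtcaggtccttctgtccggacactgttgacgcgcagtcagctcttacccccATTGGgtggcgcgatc
H2-D1: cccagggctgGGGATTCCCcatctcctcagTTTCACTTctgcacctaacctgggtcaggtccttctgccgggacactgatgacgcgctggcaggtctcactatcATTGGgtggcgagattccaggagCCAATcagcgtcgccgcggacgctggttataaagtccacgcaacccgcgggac
H2-Q2: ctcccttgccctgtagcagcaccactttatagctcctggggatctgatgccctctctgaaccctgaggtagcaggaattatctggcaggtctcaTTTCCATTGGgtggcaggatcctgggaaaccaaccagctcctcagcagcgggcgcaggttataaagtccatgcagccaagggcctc
B2m: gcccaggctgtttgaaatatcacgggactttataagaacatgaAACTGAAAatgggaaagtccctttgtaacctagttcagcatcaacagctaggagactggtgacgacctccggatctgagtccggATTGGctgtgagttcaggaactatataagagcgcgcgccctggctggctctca
H2-Aa: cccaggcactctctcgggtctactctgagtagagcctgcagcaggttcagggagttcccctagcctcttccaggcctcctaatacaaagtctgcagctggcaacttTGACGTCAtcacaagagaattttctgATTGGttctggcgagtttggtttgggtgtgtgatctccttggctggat
H2-Eb1: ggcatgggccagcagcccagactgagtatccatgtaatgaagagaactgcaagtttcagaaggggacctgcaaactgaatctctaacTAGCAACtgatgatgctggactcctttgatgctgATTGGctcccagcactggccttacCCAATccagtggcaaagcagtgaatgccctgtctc

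Over the 250 bases before the start, the pattern GGGATTCCC was in 0.301% of all 32851 promoter windows and in 4 of the 31 members with a window, all of them class I heavy chains (H2-K1, H2-D1, H2-Q6 and H2-Q7). The interferon core AANNGAAA was in 21.3% of all windows and in 17 members, the Y box CCAAT in 33.8% and in 25 members, the X box core TAGCAAC in 3.16% and in 3 members (H2-Eb1, H2-Eb2 and H2-Ob), and TGACGTCA in 1.55% and in 1 member (H2-Aa). The percentages count windows, whereas a member counts once if any of its windows matched. A match describes letters only and was not tested as a binding site. Of the 39 genes, 28 lie on chromosome 17, B2m lies on chromosome 2 (122147687 to 122153082) and Ciita on chromosome 16 (10480014 to 10531064).

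The WT, P27NULL and S2CK libraries held 2020, 4153 and 3488 cells, with 8332285, 15588317 and 19239147 UMIs and medians of 3642.5, 2740.0 and 4906.5 UMIs in a cell. Between 2 and 4 cell barcodes were shared by any pair of libraries. The WT table reached down to cells with 502 UMIs and those of P27NULL and S2CK to 1005 and 1002. By X- and Y-linked genes, all WT cells were called male, 18.4% of the P27NULL cells female and 93.9% of the S2CK cells female, so most cells of WT and S2CK differed in sex, with 214 S2CK cells called male. Cdkn1b stood at 34.5 CPM (30 to 39.4) in WT, 31.1 (28.2 to 34.2) in P27NULL and 16.9 (15.0 to 18.9) in S2CK melanotroph-like cells, where CPM is UMIs of the gene for every 1000000 UMIs of the summed cells. The level in P27NULL was not below that in WT beyond counting error and goes against the label. Which part of Cdkn1b the null allele lacks is not given in the sources used here, and 3′ counts would not see a loss elsewhere in the gene. That library is called the library labelled P27NULL where a direction is drawn from it. Sox2 in SC-like cells was at 282 CPM (239 to 331), 308 (255 to 369.6) and 129 (103 to 159).

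Cells were clustered without the 39 genes and named from markers. Melanotroph-like cells numbered 1286 in WT, 3487 in P27NULL and 3021 in S2CK, SC-like cells 136, 105 and 93, and macrophage-like cells, a name that here covers all myeloid cells, 121, 93 and 100. The other types were T or NK-like (31, 15 and 29 cells), endothelial-like (78, 21 and 41), connective tissue-like (54, 45 and 39), corticotroph-like, gonadotroph-like, Pou1f1-lineage-like and, in WT and P27NULL only, pituicyte-like cells. In each library the summed markers of a type were higher in that type than in any other. A further 41 cells of the myeloid cluster held macrophage markers together with melanotroph markers at the melanotroph level and were set apart.

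Class I genes were expressed in every cell type, at levels that were more than 10-fold higher in macrophage-like than in melanotroph-like cells of each library. The sum of the 13 heavy chains and B2m was 404 CPM (388 to 419.7) in WT, 386 (375 to 396) in P27NULL and 457 (446 to 467) in S2CK melanotroph-like cells, and a class I UMI was seen in 79.1%, 66.8% and 88.3% of these cells. Macrophage-like cells stood at 5695 CPM (5359 to 6045), 4345 (4068 to 4637) and 5092 (4834 to 5361) in the same order. T or NK-like cells, at 6468, 4391 and 6715 CPM, and endothelial-like cells, at 4476, 5596 and 7439.9 CPM, were in the same range as macrophage-like cells. SC-like cells lay between these and the endocrine cells, at 1424 CPM (1325 to 1529), 1313 (1200.0 to 1433) and 3048 (2918 to 3184). Corticotroph-like, gonadotroph-like and Pou1f1-lineage-like cells lay between 226 and 445 CPM, and the intervals of several of them overlapped each other and those of melanotroph-like cells. All endocrine types of a library were below its SC-like, endothelial-like, T or NK-like and macrophage-like cells.

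**Figure D1:**
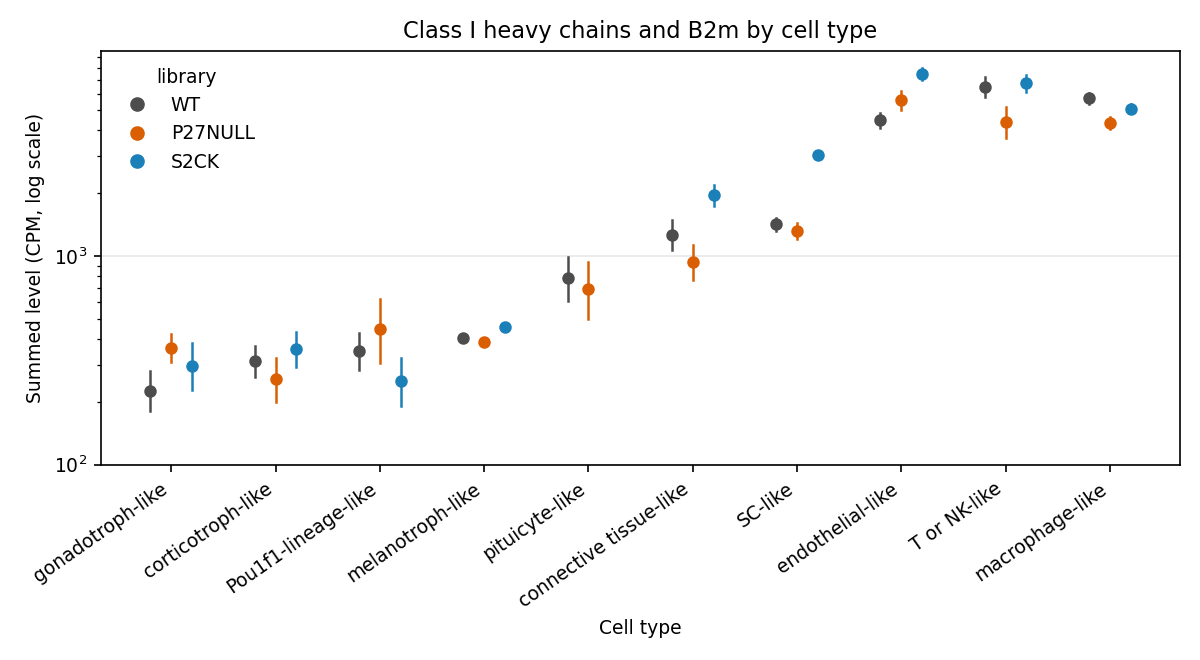
Summed level of the 13 class I heavy chains and B2m (CPM, log scale) in each marker-named cell type, with 1 point per library and bars for the 95% counting interval. The 4 endocrine types lie between 226 and 457 CPM, SC-like cells between 1313 and 3048, and endothelial-like, T or NK-like and macrophage-like cells between 4345 and 7439.9.

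Within each library, 17 of the 25 class I pathway genes with enough UMIs were at least 2-fold higher in macrophage-like than in melanotroph-like cells in all 3 libraries, against 8.87% of all genes compared in that way. Their median log2 ratio was 2.40, against -0.35 over all genes. A single class I gene, H2-Q2, was at least 2-fold lower. All 5 immunoproteasome and activator genes, both subunits of the TAP transporter, B2m and 8 of the 11 heavy chains compared were among the 17, and the chaperones Calr and Canx, the bridging factor Tapbp, its relative Tapbpl and the trimming peptidase Erap1 were not. B2m was at 28.0 CPM (23.9 to 32.5), 33.6 (30.5 to 36.8) and 26.0 (23.6 to 28.5) in WT, P27NULL and S2CK melanotroph-like cells and at 2108 (1906 to 2326), 1697 (1526 to 1883) and 1682 (1535 to 1839.8) in macrophage-like cells, which gave log2 ratios of 6.24, 5.66 and 6.02. No library overlapped between the 2 cell types. H2-D1, a classical heavy chain, was at 117, 104 and 127 CPM in melanotroph-like and 1912, 1246 and 1672 CPM in macrophage-like cells (log2 ratios 4.04, 3.59 and 3.72). H2-K1, the other classical heavy chain, was at 109.6, 121 and 148 CPM in melanotroph-like and 1107, 870.0 and 1180.0 CPM in macrophage-like cells (log2 ratios 3.34, 2.84 and 2.99).

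The light chain and the heavy chains therefore did not differ by the same amount. B2m made up 6.93% (5.96 to 8.0), 8.70% (7.95 to 9.50) and 5.69% (5.18 to 6.22) of the class I UMIs of melanotroph-like cells in WT, P27NULL and S2CK. The B2m share was 17% (14.4 to 19.9), 16.3% (13.1 to 19.8) and 20.5% (18.7 to 22.3) in SC-like cells and 37.0% (34.1 to 40.0), 39.1% (35.9 to 42.3) and 33.0% (30.6 to 35.5) in macrophage-like cells. The order melanotroph-like, SC-like, macrophage-like was the same in the 3 libraries, with no overlap of intervals between neighbours. Endothelial-like cells, at 26.2%, 36.9% and 23.2%, and T or NK-like cells, at 25.9%, 37.7% and 22.5%, lay above SC-like cells of their library, with intervals that overlapped in S2CK.

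H2-Q2, a heavy chain gene of the Q region, ran the other way. It was at 62.3 CPM (56.2 to 68.8), 49.6 (46.0 to 53.5) and 72.8 (68.8 to 76.9) in WT, P27NULL and S2CK melanotroph-like cells, where 383, 673 and 1247 UMIs were counted. Macrophage-like cells held 2, 0 and 1 UMIs of H2-Q2, and endothelial-like cells none in any library, which at a floor of 3 UMIs allows up to 24.7, 46.9 and 27.4 CPM. H2-Q2 made up 15.4% (14.0 to 16.9), 12.9% (12 to 13.8) and 15.9% (15.1 to 16.8) of the class I UMIs of melanotroph-like cells, and 3.17%, 1.61% and 1.67% of those of SC-like cells. Its level in SC-like cells, 45.1 CPM (28.9 to 67.1), 21.1 (9.10 to 41.6) and 50.8 (35.2 to 71.0), was somewhat below that of melanotroph-like cells in each library, with overlapping intervals in WT and S2CK. The related H2-Q4, H2-Q6 and H2-Q7 were all higher in macrophage-like cells, H2-Q7 by log2 ratios of 5.83, 7.07 and 6.60. Class I heavy chain genes are near-identical copies of each other, and how the counting assigned reads that fit several of them decides their separate values, so those of the H2-Q and H2-T genes are uncertain.

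Psmb8 and Psmb9 of the immunoproteasome took their largest share of their subunit pairs in macrophage-like cells among these 3 cell types, where SC-like cells lay above melanotroph-like cells beyond counting error in each library for Psmb8 and in WT and S2CK for Psmb9. Of the 5 immunoproteasome and activator genes, 0 were at least 2-fold higher in SC-like than in melanotroph-like cells in all 3 libraries, against 13% of all genes. Their median log2 ratio was nevertheless 1.22, against 0.20 over all genes. Psmb8, a catalytic immunoproteasome subunit, was at 29.4, 30.5 and 54.4 CPM in melanotroph-like cells of WT, P27NULL and S2CK, 80.8, 60.6 and 188 CPM in SC-like cells and 726, 452 and 931 CPM in macrophage-like cells. Psmb5, the standard subunit whose place Psmb8 takes, was at 204, 195 and 299.8 CPM in melanotroph-like cells and 143, 147 and 239 CPM in macrophage-like cells. Of the UMIs of this pair, Psmb8 thus held 12.6% (10.9 to 14.5), 13.5% (12.3 to 14.8) and 15.4% (14.5 to 16.3) in melanotroph-like cells and 83.5% (77.0 to 88.9), 75.4% (66.9 to 82.6) and 79.6% (74.8 to 83.8) in macrophage-like cells. In SC-like cells the Psmb8 share was 27% (20.3 to 34.7), 24.7% (16.4 to 34.8) and 47.5% (41.4 to 53.7). The share in S2CK SC-like cells lay above that of the other 2 libraries. For the second pair, Psmb9 held 14.4%, 12.1% and 10.9% of the UMIs of Psmb9 and Psmb6 in melanotroph-like, 24.8%, 17.2% and 25.8% in SC-like and 69.7%, 64.7% and 70.8% in macrophage-like cells. None of the 3 standard subunits Psmb5, Psmb6 and Psmb7 was at least 2-fold higher in macrophage-like than in melanotroph-like cells in all 3 libraries. The share over all genes was 8.87%. Psmb10, another immunoproteasome subunit, was at 32.0, 26.7 and 36.1 CPM in melanotroph-like, 67.6, 29.0 and 79.2 CPM in SC-like and 132, 114 and 158 CPM in macrophage-like cells. In the SC-like cells of P27NULL its interval, 14.5 to 51.9 CPM, held the melanotroph-like level. Psme1 and Psme2, the subunits of the proteasome activator PA28, were common in melanotroph-like cells, Psme1 at 140.5, 175 and 134 CPM and Psme2 at 156, 163 and 162 CPM. In macrophage-like cells Psme1 was at 874, 975 and 839 CPM and Psme2 at 477, 371 and 330.1 CPM.

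In SC-like cells, 8 of 24 class I pathway genes were at least 2-fold higher than in melanotroph-like cells in all 3 libraries, against 13% of all genes. They were H2-D1, H2-K1, H2-Q4, H2-Q6, H2-Q7, B2m, Erap1 and Nlrc5. Nlrc5, the class I transactivator, rested on 1, 1 and 3 UMIs in SC-like cells and 4, 3 and 1 in melanotroph-like cells. H2-K1 was at 535 CPM (475 to 601), 535 (464 to 614) and 1241 (1158 to 1328), H2-D1 at 453 (397 to 514), 390.1 (329.8 to 458) and 818 (751 to 889), and B2m at 242 (202 to 288), 214 (169.6 to 265) and 623 (565 to 686) in WT, P27NULL and S2CK SC-like cells. All of these were above the melanotroph-like level of the same library. Without the SC-like cells that held any UMI of 8 myeloid genes, and the same for melanotroph-like cells, the count was 9, with Psmb9 added.

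In endothelial-like cells 18 of 24 class I pathway genes passed the same fold, against 9.26% of all genes, and in T or NK-like cells 14 of 24, against 3.97% of all genes. The 18 genes of endothelial-like cells were the 17 of macrophage-like cells and Erap1, the latter on 4, 2 and 4 UMIs. H2-K1 was at 1079.9, 1204 and 2017 CPM in endothelial-like and 2055, 891 and 2335 CPM in T or NK-like cells. Calr, a calcium-binding chaperone of the endoplasmic reticulum, was lower in T or NK-like cells, at 40.3, 127 and 86.5 CPM on 2, 4 and 6 UMIs, than in melanotroph-like cells, at 240.3, 285 and 243 CPM.

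Class II genes were at their highest in macrophage-like cells and near the limit of detection in most endocrine cells. The sum of Cd74, H2-Aa, H2-Ab1 and H2-Eb1 was 19468 CPM (18843 to 20107) in WT, 38353 (37521 to 39199.5) in P27NULL and 41219.6 (40477 to 41972) in S2CK macrophage-like cells. Melanotroph-like cells stood at 18.9 CPM (15.6 to 22.6), 13.5 (11.6 to 15.6) and 8.17 (6.87 to 9.64), and corticotroph-like cells at 9.50, 11.0 and 17.2 CPM on 4, 3 and 5 UMIs. Pou1f1-lineage-like cells of P27NULL, at 406 CPM (276 to 576), were above the other endocrine cells, with their 31 class II UMIs in 2 of 28 cells and 379.7 CPM of the 8 myeloid genes named below. SC-like cells came next after macrophage-like cells in WT and S2CK, at 1003 CPM (920.0 to 1092), 1524 (1402 to 1653) and 4669 (4507 to 4836). T or NK-like cells, at 20.1, 1655 and 793 CPM, held class II UMIs in 1 of 31, 2 of 15 and 3 of 29 cells only, so 1 to 3 cells set each of these levels. Endothelial-like cells stood at 849, 657 and 539 CPM, with a class II UMI in 9 of 78, 7 of 21 and 20 of 41 cells.

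**Figure D2:**
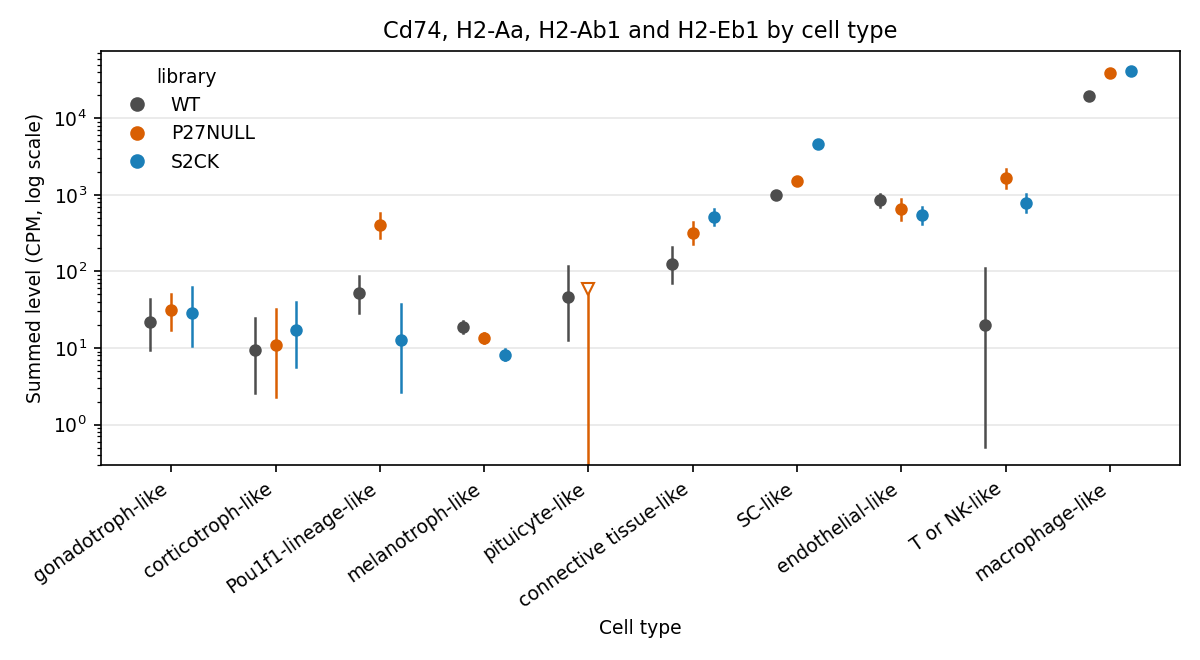
Summed level of Cd74, H2-Aa, H2-Ab1 and H2-Eb1 (CPM, log scale) in each cell type, with 1 point per library and bars for the 95% counting interval. An open triangle marks the upper limit of that interval where no UMI was counted. Macrophage-like cells lie between 19468 and 41219.6 CPM, SC-like cells between 1003 and 4669 and melanotroph-like cells between 8.17 and 18.9.

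All class II pathway genes but H2-Eb2, that is 10 of 11, were at least 2-fold higher in macrophage-like than in melanotroph-like cells in all 3 libraries, with a median log2 ratio of 8.21, against 8.87% of all genes and a median of -0.35 over all genes. Cd74, the invariant chain, was at 12057 CPM (11566 to 12562), 23524 (22874 to 24189) and 21166 (20635 to 21708) in macrophage-like cells and 11.2 (8.73 to 14.2), 8.26 (6.80 to 9.94) and 3.91 (3.03 to 4.96) in melanotroph-like cells. H2-Aa, a class II alpha chain, was at 2516, 5016 and 6458 CPM, its partner H2-Ab1 at 1293, 2382 and 4158 CPM and the beta chain H2-Eb1 at 3602, 7431 and 9437 CPM in macrophage-like cells. All 3 chains were lowest in WT. H2-DMa and H2-DMb1, which encode the DM protein that exchanges peptides, were at 254, 414 and 685 CPM and at 196, 437 and 534 CPM. The cathepsin Ctss, which trims the invariant chain and is not one of the 39 genes, was at 5080.1, 3209 and 3410.1 CPM in macrophage-like and 2.60, 1.18 and 0.408 CPM in melanotroph-like cells.

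Class II levels differed widely among the macrophage-like cells. A microglia-like subcluster of 44, 24 and 28 cells stood at 2007 CPM (1677 to 2383), 4238 (3677 to 4861) and 2324 (1943 to 2757) for the 4-gene sum, with a median of 1.0, 1.0 and 2.0 class II UMIs in a cell. In P27NULL 1 cell held 155 of the 204 class II UMIs of that subcluster. A subcluster of 32, 37 and 28 cells led by Acp5 and Mmp12, which was given no name, stood at 46293 CPM (44203 to 48455), 75245 (73080.1 to 77457) and 76050.1 (73907 to 78239). Class I did not follow this order, since the heavy chain and B2m sum was 6114, 4965 and 6066 CPM in the microglia-like and 3843, 3831 and 4766 CPM in the Acp5-led cells. Another subcluster, of 10, 16 and 18 cells and led by Birc5, Ccr7 and Ccl17, stood at 40147, 31983 and 45137 CPM of class II, with 6489.6, 7071 and 6529 CPM of the 8 myeloid genes C1qa, C1qb, C1qc, Tyrobp, Fcer1g, Csf1r, Laptm5 and Aif1, against 31599, 29746 and 29744 CPM in the Acp5-led cells.

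The rare class II genes were concentrated in that Ccr7-led subcluster of 44 cells. It held 20 of the 27 UMIs of H2-DMb2 in the series, 37 of the 76 UMIs of H2-Oa and 17 of the 32 UMIs of H2-Ob, the last 2 encoding the DO protein that restrains DM. Ciita, the class II transactivator, had 38 UMIs in the series, 25 of them in macrophage-like cells and 17 of these in the same 44 cells. The Acp5-led cells, though above them in the 4-gene sum, held 1 UMI of H2-DMb2, 20 of H2-Oa, 3 of H2-Ob and 6 of Ciita. H2-M2, a heavy chain gene counted only 15 times, had 14 of its UMIs in macrophage-like cells, 10 of them in the Acp5-led and none in the Ccr7-led cells. The WT table has no row for H2-M2.

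SC-like cells held class II transcripts well above the endocrine cells. Of 8 class II genes with enough UMIs, 6 (H2-Aa, H2-Ab1, H2-Eb1, Cd74, H2-DMa and H2-DMb1) were at least 2-fold higher than in melanotroph-like cells in all 3 libraries, against 13% of all genes. The median log2 ratio was 6.92 over the list against 0.20 over all genes. Cd74 was at 723 CPM (653 to 799) in WT, 1202 (1094 to 1318) in P27NULL and 3119 (2986 to 3256) in S2CK. H2-Aa was at 107 CPM (81.1 to 139), 145 (109 to 189) and 598 (541 to 659.6), H2-Ab1 at 63.9 (44.2 to 89.3), 73.8 (49.0 to 107) and 365 (320.5 to 414) and H2-Eb1 at 109 (82.8 to 141), 103 (73.1 to 141) and 588 (531 to 649). WT and P27NULL overlapped for the 3 chains, and S2CK was above both for all 4 genes. Ciita had 0, 3 and 9 UMIs in SC-like cells against 0, 1 and 0 in the far more numerous melanotroph-like cells.

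The 8 myeloid genes, which SCs and melanotrophs should lack, were read beside the class II genes. The same 8 genes were the markers that named the macrophage-like cells, whereas the class II genes were left out of clustering. The myeloid level of macrophage-like cells is thus high by selection, and the part of this in the values below was not tested. In SC-like cells 7 of the 8 myeloid genes were at least 2-fold higher than in melanotroph-like cells in all 3 libraries, against 13% of all genes. They summed to 209 CPM (172 to 251), 142 (107 to 186) and 166 (137 to 199.9) in SC-like cells. As a percentage of the level in macrophage-like cells of the same library, the myeloid genes stood at a median of 0.603%, 0.575% and 0.689% and at no more than 1.08%, 0.999% and 1.21%. The 4 class II genes stood at a median of 4.6%, 3.00% and 9.02% and at no less than 3.03%, 1.38% and 6.23%. In each library every one of the 4 class II genes was above every one of the 8 myeloid genes on this scale. The macrophage-like subclusters differed in the ratio of class II to myeloid RNA, with 40147 CPM of class II and 6489.6 CPM of the myeloid genes in the Ccr7-led cells of WT against 19468 and 30936 CPM over all WT macrophage-like cells, and the part of this in the separation was not tested. In melanotroph-like cells the medians were 0.0872%, 0.0330% and 0.0169% for class II and 0.0592%, 0.0200% and 0.0310% for the myeloid genes, with no such separation, and in endothelial-like cells the ranges of the 2 lists overlapped in each library.

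**Figure D3:**
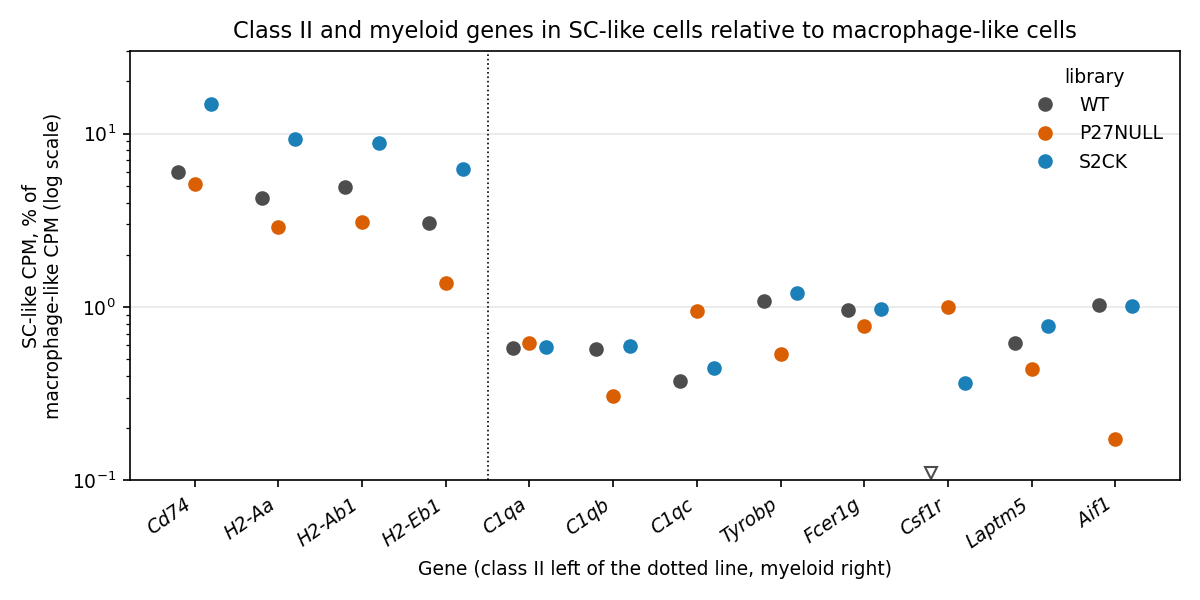
Level of 4 class II and 8 myeloid genes in SC-like cells as a percentage of the level in macrophage-like cells of the same library (log scale), with 1 point per gene and library and an open triangle for a gene with no UMI. The class II points lie between 1.38% and 14.7% and the myeloid points at or below 1.21%. The 8 myeloid genes are also the markers that named the macrophage-like cells.

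Part of the class II signal nevertheless lay in SC-like cells that also held myeloid UMIs. Such cells numbered 14 of 136, 7 of 105 and 15 of 93, and held 47.9%, 30.8% and 45.4% of the class II UMIs of the SC-like cells. Without them the 4-gene sum was 710.0 CPM (629 to 799), 1153 (1043 to 1272) and 3807 (3628 to 3992), with no UMI of the 8 myeloid genes left by construction, and the count of class II genes at least 2-fold above melanotroph-like cells remained 6. In P27NULL, 2 SC-like cells with high doublet scores and at least 5 myeloid UMIs each held 168 of the 578 class II UMIs and 49 myeloid UMIs.

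Class II UMIs were spread over most SC-like cells of S2CK and over fewer of the others. A UMI of the 4 genes was present in 55.1% (46.4 to 63.7) of the WT, 77.1% (67.9 to 84.8) of the P27NULL and 86.0% (77.3 to 92.3) of the S2CK SC-like cells, against 2.18% (1.45 to 3.13), 3.61% (3.02 to 4.29) and 3.97% (3.30 to 4.73) of melanotroph-like cells. Each cell was also thinned to 1000 UMIs and cells below that were left out. This kept 125 of 136 SC-like and 1265 of 1286 melanotroph-like cells in WT, and all of them in the other libraries. The shares were then 40.0%, 50.5% and 77.4% of SC-like and 0.791%, 1.12% and 0.828% of melanotroph-like cells. The median SC-like cell held 1.0, 2.0 and 15.0 class II UMIs, and 8.82% (4.64 to 14.9), 8.57% (3.99 to 15.6) and 62.4% (51.7 to 72.2) of them held 10 or more. Without the cells holding a myeloid UMI, 10 or more class II UMIs were in 5.74%, 7.14% and 57.7% of SC-like cells.

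**Figure D4:**
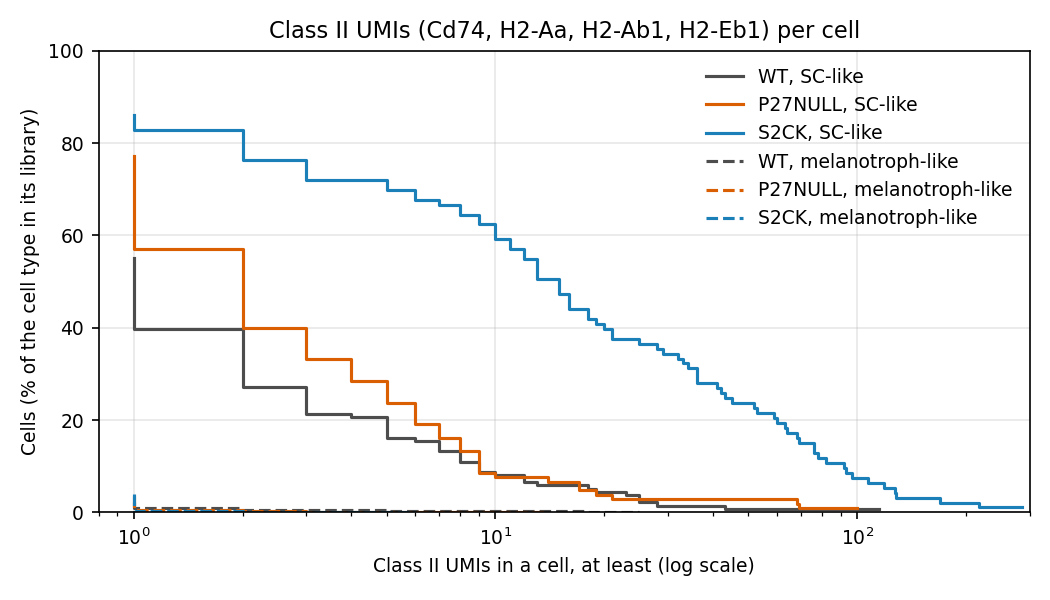
Share of SC-like (solid) and melanotroph-like (dashed) cells of each library with at least the number of class II UMIs on the horizontal axis (log scale), where class II is the sum of Cd74, H2-Aa, H2-Ab1 and H2-Eb1. At 10 UMIs the SC-like curves stand at 8.82% in WT, 8.57% in P27NULL and 62.4% in S2CK, and the melanotroph-like curves at no more than 0.311%.

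SC-like cells with more class II RNA also held more class I RNA. Among SC-like cells without a myeloid UMI, split at their library's median class II level, H2-K1 was at 670.2 CPM (575 to 777) in the upper and 491 (378 to 627) in the lower cells of WT, at 647 (519.9 to 797) and 459 (371 to 560.0) in P27NULL and at 1794 (1625 to 1975) and 586 (488 to 697) in S2CK. B2m was at 299 and 146 CPM in WT, 298 and 158 in P27NULL and 843 and 277 in S2CK. The upper cells were higher in all 3 libraries for both genes, with intervals that overlapped for H2-K1 in WT and P27NULL and for B2m in P27NULL. Psmb8 overlapped between upper and lower cells in each library, at 91.9 and 99.7 CPM in WT, 58.2 and 57.3 in P27NULL and 216 and 171 in S2CK. In WT 61 of the 122 cells held a class II UMI, so the split there set cells with such a UMI against cells without. Seeing a UMI in a cell depends on its depth, and the part of depth was not tested. The split was made on these same cells, and the values are a description.

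The design also asks how the genotypes differed within 1 cell type. In SC-like cells, 10 of 21 class I pathway genes and 6 of 7 class II pathway genes were at least 2-fold higher in S2CK than in the library labelled P27NULL with an interval above 0, against 3.10% of all genes. No member was at least 2-fold lower. The heavy chain and B2m sum had a log2 ratio of 1.22 (1.07 to 1.36) and the class II sum of 1.62 (1.49 to 1.75). H2-K1 had a log2 ratio of 1.21 (0.99 to 1.44), H2-D1 of 1.07 (0.80 to 1.34), H2-T23, a non-classical heavy chain, of 2.04 (1.19 to 3.00) and B2m of 1.55 (1.2 to 1.91). The immunoproteasome subunits Psmb8, Psmb9 and Psmb10 had log2 ratios of 1.64 (0.99 to 2.34), 1.08 (0.24 to 2.01) and 1.45 (0.50 to 2.54). Smaller counts lay behind H2-Q2 (34 against 8 UMIs), H2-Q6 (21 against 2) and H2-Q7 (36 against 4).

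The class II chains differed more than their invariant chain. H2-Aa had a log2 ratio of 2.04 (1.63 to 2.48), H2-Ab1 of 2.31 (1.74 to 2.92) and H2-Eb1 of 2.51 (2.04 to 3.03), against 1.38 (1.23 to 1.52) for Cd74. The intervals of all 3 chains lay above that of Cd74. H2-DMa and H2-DMb1 had log2 ratios of 2.22 (0.88 to 3.91) and 1.36 (0.48 to 2.36). The transport and loading genes had intervals that included 0 or too few UMIs, as with Calr at 0.15 (-0.26 to 0.57), Canx at 0.42 (-0.03 to 0.88), Tap2 at 0.38 (-0.74 to 1.62) and Tapbp at -0.19 (-0.78 to 0.43), and so did Psme1 at 0.10 (-0.21 to 0.41) and Psme2 at 0.03 (-0.38 to 0.44).

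**Figure D5:**
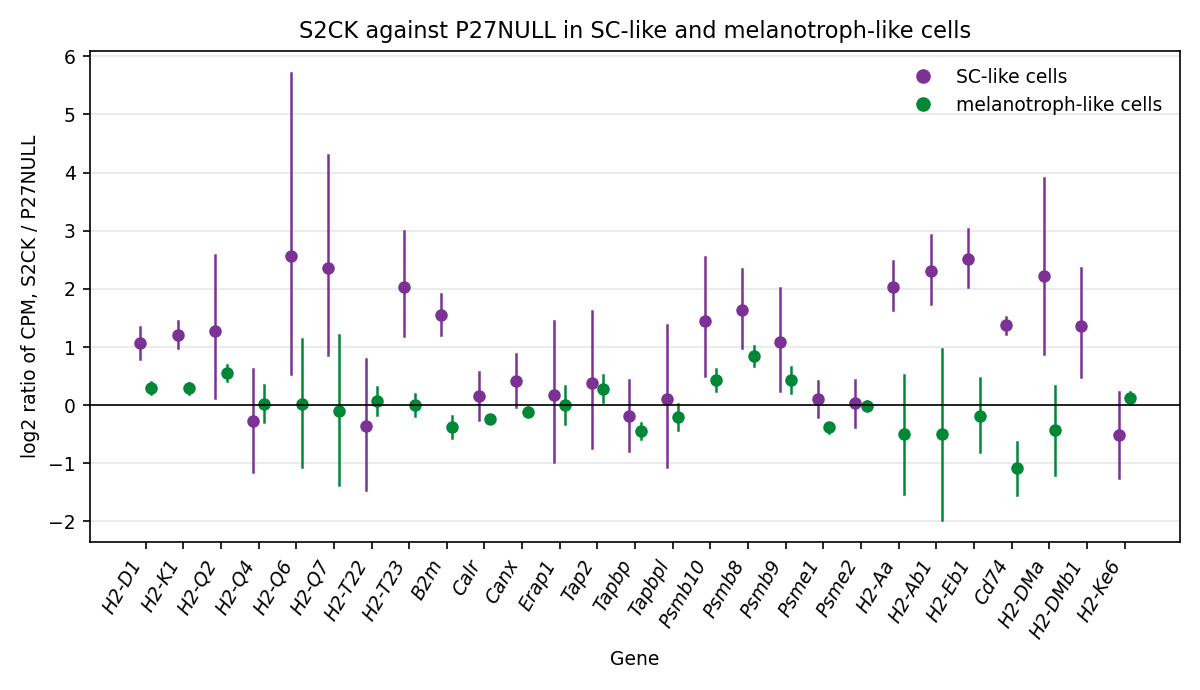
Log2 ratio of the CPM in S2CK to that in the library labelled P27NULL, in SC-like (purple) and melanotroph-like (green) cells, with bars for the 95% counting interval. The 27 members shown had at least 20 UMIs in the 2 SC-like sums. A melanotroph-like point is shown where those sums held at least 10 UMIs. In SC-like cells the class II chains lie between 2.04 and 2.51 and Psme1 and Psme2 near 0, and in melanotroph-like cells no class I gene reaches 1.

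Several other values moved with this difference. SC-like cells had medians of 2027.0, 2275.0 and 3572.0 UMIs in WT, P27NULL and S2CK, and those of S2CK were mostly female. When S2CK was set against female P27NULL cells alone (18 SC-like cells), the log2 ratio was 1.26 (0.89 to 1.65) for class I and 2.04 (1.66 to 2.46) for class II. The 11 male SC-like cells of S2CK stood at 2952 CPM (2292 to 3742) of class I and 3951 (3181 to 4850.4) of class II, against 1424 and 1003 CPM in WT, whose cells were all male. As the study describes its pools, each sex of P27NULL and S2CK came from a single mouse, so sex and animal cannot be told apart. The 8 myeloid genes had a log2 ratio of 0.22 (-0.26 to 0.72) between S2CK and the library labelled P27NULL. Without cells holding a myeloid UMI, 9 of 21 class I and 6 of 6 class II genes were still at least 2-fold higher. The share over all genes was 3.10% with every SC-like cell kept. Of 7 interferon-stimulated genes, 4 were at least 2-fold higher in S2CK SC-like cells, against 3.10% of all genes. Among them were Ifit3 at 92.7 CPM (71.1 to 119) against 13.2 (4.28 to 30.8) and Isg15 at 167 (138 to 201) against 34.3 (18.2 to 58.6). Of the regulators of the interferon response, Irf1 was at 54.5 CPM in WT, 55.4 in P27NULL and 59.8 in S2CK. The part of any of these in the difference was not tested beyond the values given.

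S2CK against WT gave 6 of 21 class I and 6 of 6 class II genes at least 2-fold higher in SC-like cells, against 3.51% of all genes. The log2 ratio was 1.10 (0.98 to 1.22) for the class I sum and 2.22 (2.09 to 2.35) for the class II sum. Without cells holding a myeloid UMI, 4 of 20 class I and 6 of 6 class II genes were at least 2-fold higher. In the same cells 1 class I pathway gene was at least 2-fold lower in S2CK than in WT. The 3.51% over all genes is with every SC-like cell kept. The library labelled P27NULL was close to WT for class I, at -0.12 (-0.28 to 0.05), and above it for class II, at 0.60 (0.43 to 0.78). The 3 contrasts share libraries with each other. A single member was at least 2-fold apart between these last 2 libraries, against 4.18% of all genes: Psmb10, at 29.0 CPM (14.5 to 51.9) in P27NULL and 67.6 (47.4 to 93.6) in WT. Cd74 was the class II gene with an interval above 0 in this contrast, with a log2 ratio of 0.73 (0.53 to 0.93). The class II sum ratio was 0.16 (-0.03 to 0.35) with the cells of high doublet score left out.

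Melanotroph-like cells differed much less between genotypes. No class I gene of 23 was at least 2-fold apart between S2CK and the library labelled P27NULL, and 1 of 6 class II genes, Cd74, was lower at -1.08 (-1.54 to -0.63), against 5.96% of all genes apart by that much. Without the cells that held a UMI of the myeloid genes, Cd74 was at 5.85 CPM (4.62 to 7.32) in P27NULL and 3.38 (2.55 to 4.39) in S2CK, less than 2-fold apart. With S2CK set against the female cells of P27NULL, the melanotroph-like class II sum had a log2 ratio of 0.18 (-0.49 to 0.91). Between P27NULL and WT, 1 of 22 class I genes (H2-Q6) and 2 of 6 class II genes (H2-Aa and H2-Eb2) were apart, against 3.80% of all genes. Without the cells that held a myeloid UMI, H2-Aa was at 1.37 CPM (0.590 to 2.69) in WT and 0.912 (0.471 to 1.59) in P27NULL on 8 and 12 UMIs, less than 2-fold apart. The class I sum had log2 ratios of -0.06 (-0.13 to 0.00) for P27NULL against WT and 0.24 (0.19 to 0.29) for S2CK against P27NULL. Psmb8 had the largest ratio of the class I pathway genes in the latter, at 0.84 (0.67 to 1.01), where its standard counterpart Psmb5 was at 0.62 (0.56 to 0.69), followed by H2-Q2 at 0.55 (0.41 to 0.69). H2-Q6 had 14 UMIs in P27NULL and 20 in WT, and H2-Q4 was at 11.1 CPM in P27NULL, 16.1 in WT and 11.3 in S2CK. In the contrast of P27NULL with WT 4 of the 7 interferon-stimulated genes were at least 2-fold lower, such as Isg15 at 2.80 CPM (1.98 to 3.85) in P27NULL, 31.1 (26.8 to 35.8) in WT and 20.5 (18.4 to 22.8) in S2CK.

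In WT, but not in the other libraries, most of the low class II level of melanotroph-like cells lay in cells with a myeloid UMI. In WT the class II sum of 18.9 CPM became 4.44 (2.90 to 6.51) without the 49 cells that held a myeloid UMI. In P27NULL and S2CK most of it remained, at 10.3 (8.61 to 12.1) and 7.0 (5.78 to 8.39), so the order of WT and the others was reversed. With all cells counted H2-Aa was at 3.74, 1.40 and 0.992 CPM, in the order WT, P27NULL and S2CK, on 23, 19 and 17 UMIs. The share of melanotroph-like cells with a class II UMI was near that of corticotroph-like cells, 2.72%, 2.59% and 2.56%, whose median depths were 2534.0, 1923.5 and 3238.0 UMIs against 4165.0, 2830.0 and 5019.0 in melanotroph-like cells.

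H2-Eb2, a beta chain gene next to H2-Eb1, was the 1 class II gene not higher in macrophage-like cells of every library. It had 40, 254 and 296 UMIs in WT, P27NULL and S2CK melanotroph-like cells, or 6.50 CPM (4.65 to 8.86), 18.7 (16.5 to 21.2) and 17.3 (15.4 to 19.4), in 2.88%, 6.71% and 9.27% of the cells. Macrophage-like cells held 6 UMIs in WT, or 31.8 CPM (11.7 to 69.2), and none in the others, and SC-like cells held 0, 0 and 4. Among melanotroph-like cells WT was lowest, with a log2 ratio of 1.53 (1.04 to 2.05) for P27NULL and 1.41 (0.93 to 1.92) for S2CK against WT. Other RefSeq genes overlapping H2-Eb2 were searched for and none was found.

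In macrophage-like cells the class II sum was higher in S2CK and in the library labelled P27NULL than in WT, with log2 ratios of 0.98 (0.92 to 1.03) for the library labelled P27NULL and 1.08 (1.03 to 1.14) for S2CK, and 0.10 (0.06 to 0.15) between the latter 2. The microglia-like share of these cells was 44 of 121 in WT, 24 of 93 in P27NULL and 28 of 100 in S2CK. Within the microglia-like cells S2CK, at 2324 CPM, overlapped WT, at 2007 CPM, and within the Ccr7-led cells the 40147 CPM of WT lay between the other 2. Within the Acp5-led cells and within the cells led by Cbr2, Pf4 and Mrc1 the WT level was lowest, in the latter at 8614 CPM (7735 to 9566) against 30962 (28806 to 33236) and 28968 (27392 to 30611). The macrophage-like class I sum had log2 ratios of -0.39 (-0.52 to -0.26) for P27NULL against WT and 0.23 (0.11 to 0.35) for S2CK against P27NULL. Psmb8 was lowest in P27NULL, with a log2 ratio of 1.04 (0.70 to 1.40) for S2CK against it, and Tap1 was at 21.2, 61.8 and 87.8 CPM on 4, 13 and 25 UMIs. H2-Ab1 and H2-Oa were higher in S2CK than in the library labelled P27NULL, with log2 ratios of 0.80 (0.65 to 0.96) and 1.42 (0.51 to 2.43).

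A small melanotroph-like cluster led by interferon-stimulated genes, of 19 cells in WT, 1 in P27NULL and 27 in S2CK, had a higher class I sum in WT and S2CK. The heavy chain and B2m sum was 834 CPM (647 to 1057) in these cells of WT and 633 (524 to 756) in those of S2CK, against 398 (382 to 414) and 455 (444 to 465) in the other melanotroph-like cells. Tap1, Psmb8, Psmb9, B2m, H2-T22, Psme1 and Psme2 had intervals above 0 in both libraries, Tap1 with log2 ratios of 3.48 (1.09 to 5.23) and 3.55 (2.28 to 4.62) and Psmb8 with 2.75 (1.88 to 3.51) and 2.31 (1.86 to 2.73). H2-K1, at 0.30 (-0.71 to 1.15) and 0.23 (-0.31 to 0.73), and H2-D1, at 0.57 (-0.31 to 1.32) and 0.05 (-0.58 to 0.62), did not. The share of all genes with intervals above 0 in both libraries was not computed, so these values are a description only. The Psmb8 share of its pair was 40.5% (24.8 to 57.9) and 41.9% (32.8 to 51.4). No UMI of Cd74, H2-Aa, H2-Ab1 or H2-Eb1 was counted in these cells, and H2-Eb2 had 2 UMIs in those of S2CK. A count of 0 allows up to 36.8 CPM in the WT and 15.8 CPM in the S2CK cells, above the 4-gene sums of 19.1 and 8.26 CPM in the other melanotroph-like cells, so a difference in class II was not detectable at this depth.

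Other genes of the pathway, from lists written with earlier results known, followed the cell types in part. In macrophage-like cells all 4 interferon receptor chains and 2 of 4 MHC-like genes outside H2 (Fcgrt and Hfe) were at least 2-fold above melanotroph-like cells in all 3 libraries, against 8.87% of all genes, as were the 2 class II processing and the 2 co-stimulation genes that could be compared, and none of the 3 X-box factors Rfx5, Rfxank and Rfxap was. In SC-like cells 1 of 4 receptor chains (Ifngr1), 1 of 4 MHC-like genes (Fcgrt), 1 of 2 class II processing genes (Ctss), 0 of 1 co-stimulation genes and none of the X-box factors passed the same fold, against 13% of all genes. Fcgrt, the neonatal Fc receptor, was at 101, 145 and 142 CPM in SC-like and 16.1, 15.0 and 22.5 CPM in melanotroph-like cells. Ctss was at 26.3, 23.7 and 25.4 CPM in SC-like cells, with overlapping intervals, and Cd86, a co-stimulatory ligand, had 1, 0 and 0 UMIs there.

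H2-Ke6, which encodes a steroid dehydrogenase, was at 103, 101 and 109.9 CPM in melanotroph-like, 92.1, 79.1 and 55.3 in SC-like and 58.3, 52.3 and 49.2 in macrophage-like cells. Calr was at 214, 198 and 219.8 CPM and Canx at 163, 156 and 208 CPM in SC-like cells, close to melanotroph-like cells, where Canx was at 177, 199.7 and 185 CPM. H2-M3 was at 16.7, 15.0 and 18.1 CPM and H2-T22 at 17.2, 19.1 and 20 CPM in melanotroph-like cells and both lay between 63.6 and 109 CPM in macrophage-like cells. H2-T23 was at 31.9, 30.2 and 30.2 CPM in melanotroph-like and 217, 114 and 186 CPM in macrophage-like cells. Tap2, the partner of Tap1, was at 22.1, 18.5 and 22.5 CPM in melanotroph-like, 35.7, 26.4 and 34.4 in SC-like and 90.1, 42.8 and 91.3 in macrophage-like cells. Tapbp was at 61.0, 70.0 and 51.4 CPM in melanotroph-like and 107, 105 and 92.7 in SC-like cells. Erap1 was at 10.7, 10.6 and 10.7 CPM in melanotroph-like and 24.4, 26.4 and 29.9 in SC-like cells. Tapbpl was at 20.6, 24.5 and 21.4 CPM in melanotroph-like and 37.6, 26.4 and 28.4 CPM in SC-like cells. H2-Q10 did not exceed 9 UMIs in melanotroph-like cells of any library, H2-Q1 had all 5 of its UMIs in S2CK melanotroph-like cells, and H2-T24 had 3 of its 6 in S2CK macrophage-like and 2 in S2CK melanotroph-like cells. Neither H2-Q1 nor H2-T24 has a row in the WT and P27NULL tables.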

How the data were processed

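The deposited tables hold raw UMI counts per gene and cell, made by the authors from 10x Genomics 3′ libraries, 1 per genotype. The submitters' processing notes name Cell Ranger 3.0.2, STAR 2.5.1b, R 3.6.0, Seurat 3 and the mm10 build. Every gene has counts of 3′ tags, so levels were compared between cells and not between genes, apart from the paired shares of UMIs stated as such.

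Cells were clustered (scanpy 1.11.5, igraph 0.11.9) on 2000 variable genes, 20 principal components and 20 neighbours with Leiden resolution 1, leaving out the 39 genes, sex-linked genes, Cdkn1b, Sox2, Sox9, Pomc and Tbx19. SC-like and melanotroph-like cells came from clusters of each library and the other types from clusters of all libraries. Scrublet marked 11 of 9661 cells, too few to have worked, so no cell was removed as a doublet, and an alternative left out the 268 cells of highest score. Unnamed clusters held 11, 78 and 3 cells.

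For each cell type of a library the counts were added up and given as CPM, with exact Poisson intervals, exact conditional intervals for ratios and Clopper-Pearson intervals for shares, all at 95% and covering counting error only (scipy 1.17.1). A count of 0 was set to a floor of 3 UMIs in ratios. A gene was called between cell types when at least 2-fold apart in all 3 libraries with at least 10 UMIs, and between genotypes when at least 2-fold apart with an interval that left out 0. The summing and interval code was tested on simulated data. Members with at least 20 UMIs were to be named with values, and in a contrast between genotypes those with a log2 ratio of at least 0.5 and an interval without 0. The members and lists were chosen with earlier results of these data known.

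Alternatives covered cells with at least 500 genes and 1000 UMIs, doublets, clustering, totals, TMM factors (edgeR 4.0.16), thinning to 1000 UMIs, a minimum of 1 UMI, cells without myeloid UMIs and cells of 1 sex. Keeping the mixed myeloid cells, using WT and S2CK alone, and all alternatives for class II in SC-like cells were chosen after seeing the data. The full count of the interferon regulator list is not reported here.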

Additional observations from a re-analysis of the deposited data

Results flagged for a closer look

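B2m and Cd74 lay in opposite directions in SC-like and melanotroph-like cells between S2CK and the library labelled P27NULL. For B2m the log2 ratio was 1.55 (1.2 to 1.91) in SC-like and -0.37 (-0.56 to -0.18) in melanotroph-like cells. For Cd74 it was 1.38 (1.23 to 1.52) in SC-like and -1.08 (-1.54 to -0.63) in melanotroph-like cells, where Cd74 rested on 67 and 112 UMIs. Without the melanotroph-like cells that held a myeloid UMI, Cd74 was at 3.38 CPM (2.55 to 4.39) in S2CK and 5.85 (4.62 to 7.32) in P27NULL, less than 2-fold apart. With S2CK set against the female cells of P27NULL alone, the melanotroph-like class II sum had a log2 ratio of 0.18 (-0.49 to 0.91). The difference between the cell types was not tested, since each genotype had 1 library.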

How the results depend on the processing

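Of 96 values under alternatives, 82 stayed within the limits set and none changed direction, and all 42 counts of genes stayed within 1.5-fold. The values that moved were log2 ratios of sums. For class II in SC-like cells, P27NULL against WT was 0.16 without high-score doublets and 0.98 with thinned cells, against 0.60, and S2CK against P27NULL was 2.11 without high-score doublets, 1.75 with a total that left out Pomc, mitochondrial and ribosomal protein genes, 1.77 with TMM factors, 1.37 with thinned cells and 2.04 with cells of 1 sex, against 1.62. For class I in SC-like cells, S2CK against P27NULL was 1.37 with TMM factors, against 1.22. For class I in melanotroph-like cells, P27NULL against WT was -0.16 with that reduced total and -0.14 with TMM factors or thinned cells, against -0.06, and S2CK against P27NULL was 0.37 with the reduced total or TMM factors and 0.33 with cells of 1 sex, against 0.24. Beyond the construction of each alternative, the cause was not tested. No paired analysis was possible because each genotype had 1 library. Depth limits the rare genes most, since Nlrc5 and Ciita had at most 12 UMIs in any cell type of a library.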

Other observations

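The mixed cells that held macrophage and melanotroph markers, 6 in WT, 22 in P27NULL and 13 in S2CK, stood at 12796, 6030.2 and 4927 CPM of the 4 class II genes and at 1546, 736 and 1329 CPM of the heavy chains and B2m. A macrophage-like subcluster led by Rsad2, Ifit3 and Ifit2, of 9, 4 and 8 cells, stood at 24812, 39895 and 51976 CPM of class II and at 5992, 5683 and 5881 CPM of the heavy chains and B2m. These class I values overlapped between the libraries, and the class II values did not.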
